A study of Sus scrofa with 30 samples.

Results

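The PI3K, AKT and mTOR genes described here are IRS1, PIK3CA, PIK3R1, AKT1, AKT2, MTOR, RPTOR and RPS6KB1. They were chosen by name, with earlier results of these data known. All transcripts that the Sscrofa11.1 RefSeq annotation gives to these genes were taken, and their values were added up per gene. The 8 genes are 8 of 26012 gene sums and hold 16 of the 61773 transcripts in the table. Transcripts that the authors assembled themselves carry no position in the table, so none could be added to a member's sum.

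RNA was measured in whole mammary gland tissue of multiparous crossbred sows (Danish Landrace×Yorkshire) at 5 stages: MG (day 70 of gestation), LG (day 110 of gestation), EL (day 2 postpartum), PL (day 10 postpartum) and W2 (day 2 after weaning). No treatment and no altered allele is named for any group, and each stage has 6 samples. By the study's records the sows were siblings by one parent, and their age and body weight also differed somewhat between the stages, which cannot be told apart from stage here. In each stage 3 samples lay within 1.80 to 1.85% of each other (the largest median difference of a pair), while the other 3 differed pair by pair by 19.6 to 59.8%, and the means of both sets of 3 lay within 0.741%. The near-identical 3 were therefore not counted, which leaves n = 3 per stage and 15 samples: MG 1, 3 and 6, LG 1, 3 and 4, EL 3, 4 and 6, PL 2, 3 and 6, and W2 2, 3 and 6. The sample titles and the genotype field of the records disagree for MG and EL, each carrying the other stage's name in that field, and the titles were followed. Milk protein genes summed to 63857 to 120785 units in the samples titled EL and to 11906 to 29461 units in those titled MG.

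IRS1 is the adaptor that insulin and IGF-1 receptors phosphorylate. PI3K, made of a catalytic subunit such as PIK3CA and a regulatory subunit such as PIK3R1, then forms the membrane lipid PIP3, which brings AKT kinases to the membrane for activation. AKT releases the brake on mTORC1, the complex of the kinase MTOR and its scaffold RPTOR, and mTORC1 phosphorylates the S6 kinase RPS6KB1 and so promotes protein synthesis. In the lactating gland this route is known for its part in milk protein translation and in survival of the secretory epithelium. Its activity is set by phosphorylation, which RNA levels do not measure.

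Values are called units here, and each sample's values add up to 997480 to 998888 in the counted samples, as TPM values do. They are corrected for transcript length, so levels of different genes can be compared. A fixed total also means that a gene's value falls when others take more of it. Milk protein genes took 91237 to 285004 units in the PL samples against 5781 to 8140 in W2, and the 20 highest transcripts took 59.9% of all units in PL 2 against 25.6 to 43.0% in the other 14 samples. The median log2 fold change of the 20911 gene sums with a mean of at least 1 unit was -0.65 for PL vs MG and 0.76 for W2 vs PL. The PL vs MG and W2 vs PL differences of the 6 measured members are therefore also given after median ratio scaling, which divides every sample by its typical ratio to the other samples and leaves medians of -0.06 and 0.12. A difference is said to have passed at a Benjamini-Hochberg adjusted p below 0.05 in limma over all gene sums.

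The 8 genes spanned a wide range of levels. AKT1 was the highest, with a mean of 106 units over the 15 samples and rank 622 of 14951 reference genes. PIK3R1 followed at 45.5 units (rank 1573), and it lay below AKT1 and above RPS6KB1 in 15 of 15 samples. RPS6KB1 (11.4 units, rank 5211) and MTOR (9.64 units, rank 5854) lay close together. RPS6KB1 was the higher of the pair in 12 of 15 samples, at a mean log2 difference of 0.32 (SD between samples 0.57), and their order was not tested. RPTOR had a mean of 3.77 units (rank 9072) and lay below MTOR in 14 of 15 samples, and IRS1 had 1.22 units (rank 11893) and lay below RPTOR in 13 of 15. The mean log2 difference of RPTOR over IRS1 was 1.08 (SD between samples 1.16), and this order was not tested either. The sums of RPTOR, IRS1 and RPS6KB1 cover 2 of 8, 1 of 3 and 2 of 3 reference transcripts, so their ranks hold for the listed transcripts only. The transcripts listed for AKT2 and PIK3CA were at 0 in most samples, and these genes could not be ordered.

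**Figure D1:**
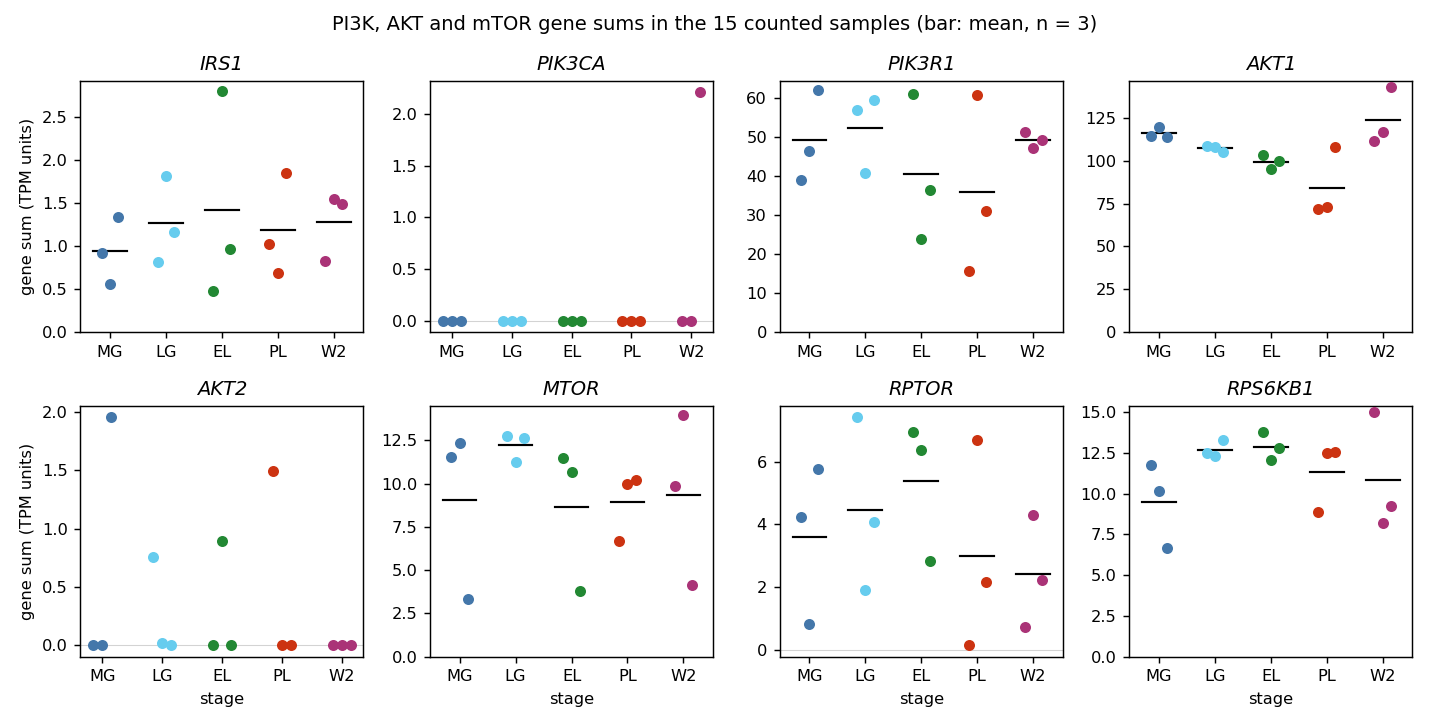
Gene sums of the 8 members in TPM units (y axis, linear) by stage (x axis), with 1 point per counted sample and a bar at the mean of the 3 samples, left out for PIK3CA and AKT2 because most of their values are 0. AKT1 is lowest in PL, where 2 samples lie at 72.1 and 73.0 units and the other at 108, whereas MTOR and RPTOR have single samples far below the others of their stage.

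At the head of the route, IRS1 (chr15:128245846-128307321) was low at every stage. Its values were 0.92, 0.56 and 1.33 units in MG, 0.82, 1.81 and 1.17 in LG, 0.47, 2.80 and 0.97 in EL, 1.02, 0.68 and 1.85 in PL, and 0.83, 1.54 and 1.48 in W2. Every stage overlapped every other. The widest difference, W2 vs MG, was 0.32 on the log2 scale (95% interval -0.65 to 1.29, limma adjusted p = 1). As deposited, PL vs MG was 0.21 and W2 vs PL was 0.11, against 0.66 and -0.41 after scaling, and neither passed on either scale. The table holds 1 of its 3 reference transcripts.

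PIK3CA (chr13:117193935-117282151), which encodes the catalytic subunit p110α, was listed at 0 in 14 of 15 samples and at 2.21 units in W2 6. Only 1 of its 2 reference transcripts, XM_021069858.1, is in the table, and the table shows no level for the other. AKT2 (chr6:48555785-48620472), the AKT isoform known for its role in insulin-stimulated glucose uptake, was listed at 0 in 10 of 15 samples and reached 1.95 units in MG 6, 0.76 and 0.02 in LG 1 and 3, 0.89 in EL 4 and 1.49 in PL 2. That value comes from XR_002344388.1, a non-coding transcript, which is 1 of the 11 AKT2 transcripts of the reference. A value at 0 is therefore a statement about 1 listed transcript of each gene, and no fold change is given for either.

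PIK3R1 (chr16:46434757-46523626), which encodes the regulatory subunit p85α, ran at 39.1, 46.4 and 62.1 units in MG, 56.9, 40.7 and 59.6 in LG, and 61.2, 23.8 and 36.4 in EL. The PL samples had 15.8, 60.7 and 31.0 units, and the W2 samples 51.4, 47.3 and 49.3. PL thus held the lowest sample of the 15 and the third highest, whereas the 3 W2 samples lay close together. The widest difference, PL vs LG, was -0.73 (95% interval -1.64 to 0.19, limma adjusted p = 0.26), and W2 vs PL was 0.66 (95% interval -0.26 to 1.58, adjusted p = 0.25). Without PL 3 both passed, at -1.20 (adjusted p = 0.049) and 1.14 (adjusted p = 0.038), and without PL 2 they shrank to -0.25 and 0.18. The PL vs MG difference was -0.63. After median ratio scaling W2 vs PL was -0.06 and PL vs MG was 0.03.

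AKT1 was the only member whose sum passed in a pairwise comparison as deposited, in 2 of 10, and it did not pass the F test across stages. Its locus is on an unplaced sequence of Sscrofa11.1 (positions 3040277 to 3061464) and encodes the ubiquitous AKT kinase. The MG samples had 114, 120 and 114 units, the LG samples 109, 108 and 105, the EL samples 103, 95.2 and 99.8, the PL samples 72.1, 73.0 and 108, and the W2 samples 112, 117 and 143. The 3 MG samples lay above all LG samples, and those above all EL samples (samples did not overlap in this direction for 13.0% of gene sums with a mean of at least 1 unit in LG vs MG and 17.9% in EL vs LG). The EL samples thus also lay below MG (31.1%), and neither difference passed: LG vs MG was -0.11 and EL vs LG was -0.11, with adjusted p of 1 and 0.87. PL lay below MG (40.7%), although PL 6 was within the range of LG, and W2 lay above LG (22.5%), EL (40.1%) and PL (46.0%). AKT1 was lower in PL than in MG by 0.48 on the log2 scale (log2 fold change -0.48, SE 0.16, 95% interval -0.82 to -0.14, limma adjusted p = 0.039) and higher in W2 than in PL by 0.57 (SE 0.16, 95% interval 0.23 to 0.91, adjusted p = 0.015), a fold of 1.48.

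Both AKT1 differences were smaller than the median shift of all gene sums. After median ratio scaling they had the opposite sign and did not pass: PL vs MG was 0.18 (95% interval -0.12 to 0.48, limma adjusted p = 0.45) and W2 vs PL was -0.16 (95% interval -0.46 to 0.14, adjusted p = 0.49). Scaled AKT1 values were 127, 86.8 and 128 units in PL against 96.5, 93.8 and 112 in W2, so the stages overlapped. Without W2 6 the W2 vs PL call was lost (0.46, adjusted p = 0.062). The PL vs MG call was lost without any single one of MG 1, MG 3, MG 6, LG 1, LG 3, EL 6, PL 2 or PL 3, with differences from -0.50 to -0.38 and adjusted p from 0.052 to 0.11. Over all 15 omissions PL vs MG ran from -0.67 to -0.38 and W2 vs PL from 0.46 to 0.76.

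AKT1 was 1 of 8 members that passed in PL vs MG, where 25.2% of all gene sums passed (23.0% lower in PL), and 1 of 8 in W2 vs PL, where 32.8% passed (30.4% higher in W2). In PL vs LG, 14.7% of gene sums passed, and in PL vs EL 4.62%, with no member among them by limma. At an unadjusted limma p below 0.05, PL vs LG had 1 member, AKT1 at -0.37 (adjusted p = 0.12), and PL vs EL had 0. Of all gene sums 0.0115% passed in LG vs MG, 0.0269% in EL vs MG, 0.0115% in W2 vs MG, 0.0154% in EL vs LG, 0.0346% in W2 vs LG and 0.554% in W2 vs EL, again with no member, and in these 6 comparisons no member reached an unadjusted p below 0.05. In the F test across all 5 stages 18.3% of gene sums passed and 0 of 8 members did, AKT1 having the lowest adjusted p of 0.097. Among the gene sums of the 6 measured members the widest difference was that of RPTOR in PL vs EL, at -1.27.

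**Figure D2:**
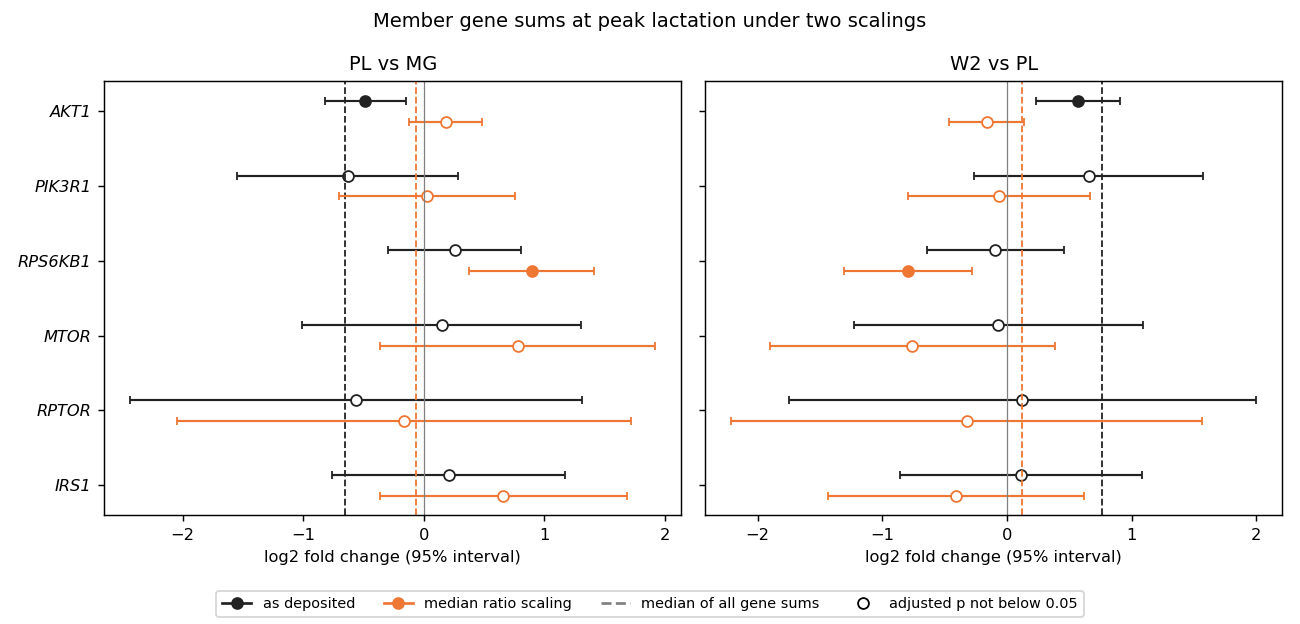
Log2 fold changes with 95% intervals (x axis) of the 6 members with a mean of at least 1 unit, for PL vs MG and W2 vs PL, as deposited (black) and after median ratio scaling (orange), with dashed lines at the median of all gene sums and filled points where the adjusted p was below 0.05. AKT1 passed as deposited (-0.48 and 0.57) and crossed 0 after scaling, whereas RPS6KB1 passed only after scaling (0.90 and -0.79).

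MTOR (chr6:71286989-71412913), the kinase shared by both mTOR complexes, has 1 reference transcript. Its values were 11.5, 12.3 and 3.31 units in MG, 12.8, 11.3 and 12.7 in LG, 11.5, 10.7 and 3.79 in EL, 6.67, 9.96 and 10.2 in PL, and 9.86, 14.0 and 4.13 in W2. The samples MG 6, EL 6 and W2 6 lay well below the other samples of their stages, whereas PL 6 did not. All 3 PL samples lay below all 3 LG samples, as for 34.6% of gene sums with a mean of at least 1 unit, at a difference of -0.45 (limma adjusted p = 0.60). The widest difference, EL vs LG, was -0.61 (95% interval -1.77 to 0.55, limma adjusted p = 0.80) and shrank to -0.14 without EL 6. PL vs MG was 0.15 and W2 vs PL was -0.07 as deposited, against 0.78 (adjusted p = 0.39) and -0.76 (adjusted p = 0.38) after scaling.

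RPTOR (chr12:1709121-1991844), the scaffold that presents substrates to mTORC1, was the most scattered of the measured members (SE of a log2 difference 0.86). It had 4.24, 0.82 and 5.76 units in MG, 7.42, 1.92 and 4.07 in LG, 6.94, 6.37 and 2.84 in EL, 0.14, 6.70 and 2.16 in PL, and 0.71, 4.31 and 2.22 in W2. Every stage overlapped every other. The widest difference, PL vs EL, was -1.27 (95% interval -3.14 to 0.61, limma adjusted p = 0.47), and it shrank to -0.34 without PL 2, the sample at 0.14. As deposited, PL vs MG was -0.56 and W2 vs PL was 0.12, against -0.16 and -0.32 after scaling. The table holds 2 of its 8 reference transcripts.

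RPS6KB1 (chr12:36111584-36159287), the S6 kinase downstream of mTORC1, had 11.7, 10.1 and 6.68 units in MG, 12.5, 12.3 and 13.3 in LG, 13.8, 12.1 and 12.8 in EL, 8.91, 12.5 and 12.6 in PL, and 15.0, 8.20 and 9.26 in W2. LG and EL were both narrow and lay above all 3 MG samples, which was seen for 3.10% and 2.41% of gene sums with a mean of at least 1 unit. The EL vs MG difference, the widest, was 0.45 (95% interval -0.10 to 1.00, limma adjusted p = 0.39) and fell to 0.23 without MG 6. PL vs MG was 0.26 (adjusted p = 0.49) and W2 vs PL was -0.09 (adjusted p = 0.81), while the median gene fell and rose. The table holds 2 of its 3 reference transcripts.

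Relative to that median, RPS6KB1 stood higher in PL than in MG and W2. After median ratio scaling its values were 15.7, 14.9 and 15.0 units in PL against 10.5, 8.17 and 5.77 in MG, 12.3, 12.1 and 12.0 in LG, 13.3, 14.3 and 13.6 in EL, and 13.0, 6.59 and 7.24 in W2. All 3 PL samples lay above the other 12, but the share of all gene sums that do so on this scale was not taken. PL vs MG was then 0.90 (95% interval 0.38 to 1.41, limma adjusted p = 0.030) and W2 vs PL was -0.79 (95% interval -1.31 to -0.28, adjusted p = 0.046), whereas PL vs LG at 0.31 (adjusted p = 0.48) and PL vs EL at 0.14 (adjusted p = 0.83) did not pass. On this scale 11.0% of gene sums passed in PL vs MG (5.11% as higher, 5.86% as lower) and 13.2% in W2 vs PL (7.67% as higher, 5.56% as lower). RPS6KB1 was 1 of 8 members in each, a count near those shares. Single samples were left out on the deposited scale only, so how far the scaled calls rest on 1 sample was not tested. With quantile normalization PL vs MG passed (0.84, adjusted p = 0.047, where 11.6% passed) and W2 vs PL did not (-0.80, adjusted p = 0.054, where 13.6% passed).

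The transcripts behind each sum were compared next. Over the 15 samples XM_021081500.1 made up 82.6% of AKT1, from 63.5% in EL 3 to 91.0% in LG 1. In EL 3 and EL 4 the share of XM_021081501.1 was 27.5% and 28.4%, and in EL 6 it was 4.85%. The levels of XM_021081500.1 were 102, 96.4 and 97.5 units in MG, 98.8, 88.3 and 93.0 in LG, 65.6, 64.95 and 85.6 in EL, 63.8, 61.2 and 91.0 in PL, and 98.3, 83.3 and 124 in W2. Its W2 vs PL difference of 0.50 (95% interval 0.06 to 0.94) had a limma adjusted p of 0.16 over all transcripts, where 7.13% passed. XM_021081501.1 ranged from 2.93 to 28.4 units, NM_001159776.1 from 2.87 to 10.0, and XM_021081499.1 from 0 to 3.83.

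PIK3R1 was split more evenly. XM_021076847.1 made up 54.3% of all its units and XM_005672504.3 27.1%. XM_021076848.1, with 15.7%, was either present or nearly missing. It had 6.32 to 26.0 units in 7 samples and at most 0.11 in the other 8. The 7 samples were MG 3, MG 6, LG 4, EL 3, EL 4, PL 2 and W2 6, so that each stage had samples of both kinds. XM_021076849.1 was at 1.47 to 6.45 units in 6 samples and at most 0.05 in the other 9. XM_021076847.1 had 32.6, 16.9 and 29.5 units in MG, 47.7, 29.6 and 22.1 in LG, 35.1, 12.2 and 21.7 in EL, 6.04, 22.5 and 16.7 in PL, and 29.9, 24.6 and 22.6 in W2. Its PL vs LG difference was -1.22 (95% interval -2.28 to -0.16, limma adjusted p = 0.25, where 2.26% of transcripts passed).

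XM_005672504.3 was at 0.02 units in EL 3 and 36.7 in PL 3. RPTOR rested on XM_021066493.1 for 96.0% of its units, except that the 0.14 units of PL 2 came from XM_021066492.1 alone and that LG 3 was divided at 49.5% and 50.5%. RPS6KB1 rested on XM_003131671.5 for 96.2%, with XM_021067293.1 above 1 unit only in LG 3 (3.86) and W2 2 (2.08). IRS1 and MTOR each had a single transcript, NM_001244489.1 and XM_003127584.6. The widest transcript differences were those of PIK3R1, with XM_005672504.3 at 2.32 in W2 vs EL (limma adjusted p = 0.40), XM_021076849.1 at 2.10 in W2 vs LG (adjusted p = 0.82) and XM_021076848.1 at -2.03 in PL vs MG (adjusted p = 0.62). None of the 16 transcripts passed in any of the 10 comparisons or in the F test by limma. Over all transcripts 0.0162% passed in LG vs MG, 0.0405% in EL vs MG, 4.28% in PL vs MG, 0.0275% in W2 vs MG, 0.0178% in EL vs LG, 2.26% in PL vs LG, 0.0324% in W2 vs LG, 0.698% in PL vs EL, 0.0664% in W2 vs EL, 7.13% in W2 vs PL and 2.60% in the F test. Transcripts of 1 gene share exons, so how the authors' quantification divided reads between them cannot be told apart from a change of isoform.

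**Figure D3:**
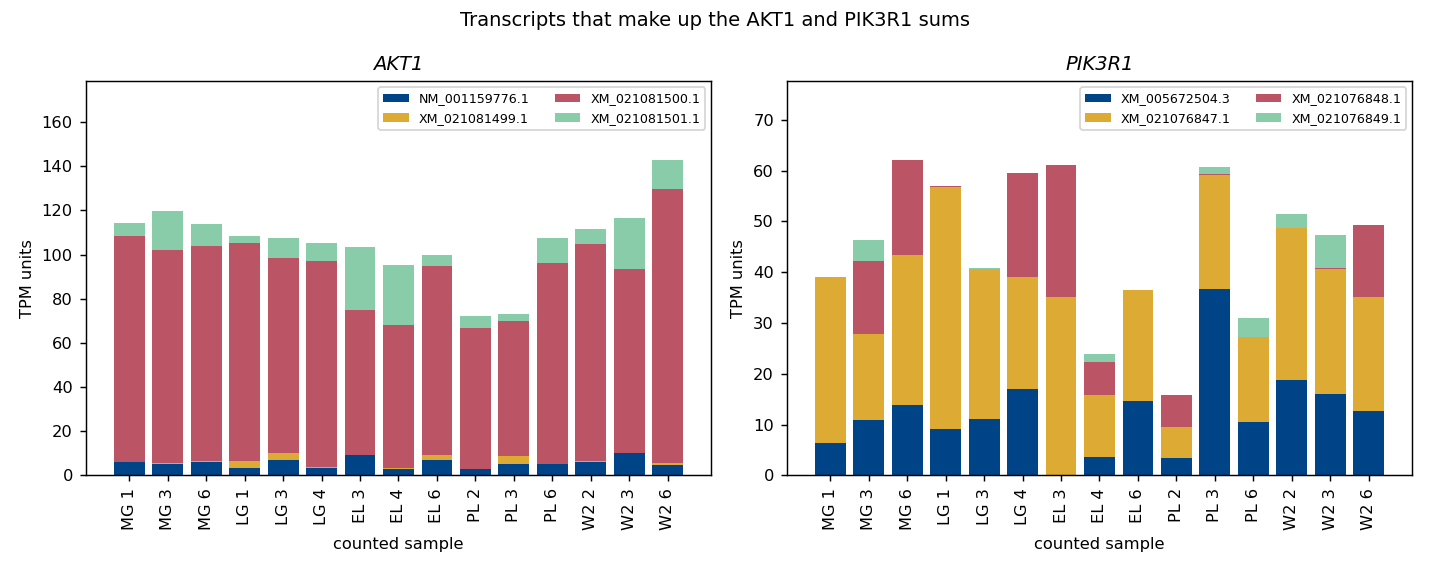
Stacked bars of the 4 transcripts of AKT1 and of PIK3R1 in TPM units (y axis, from 0) in each of the 15 counted samples (x axis). XM_021081500.1 fills most of every AKT1 bar, whereas XM_021076848.1 of PIK3R1 is present at 6.32 units or more in 7 samples and nearly missing in the other 8.

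Ratios of partners within a sample were formed as differences of log2(value + 0.5). MTOR has 1 reference transcript, which is listed, whereas the RPTOR sum covers 2 of 8. The log2 ratio of RPTOR to MTOR averaged -1.30 ± 2.00 for the MG samples, -1.52 ± 0.77 for LG, -0.58 ± 0.19 for EL, -2.01 ± 1.48 for PL and -1.82 ± 1.18 for W2 (mean ± SD, n = 3). The EL samples lay closest together, and their ratio exceeded that of the other 12 samples by 1.08 (two-sided exact permutation test, p = 0.18). In PL it was below the others by 0.71 (log2 difference -0.71, exact permutation p = 0.37), and without PL 2 the difference was 0.03. The ratios of AKT1 to AKT2 and of PIK3CA to PIK3R1 rest on genes mostly at 0, where the ratio is that of the partner to the 0.5 that was added. Over the 15 tests of the 3 ratios the lowest exact permutation p was 0.11, for AKT1 to AKT2 in W2, and every adjusted p was at least 0.92.

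On the deposited scale the members showed no common course. Over the 15 samples Pearson's r between the sums of the 6 measured members ran from -0.43 (IRS1 and PIK3R1, Spearman's rho -0.46) to 0.52 (PIK3R1 and RPTOR, rho 0.51). MTOR and RPTOR, partners in mTORC1, had r = 0.12, and AKT1 and PIK3R1 had r = 0.42. The samples share their totals and fall into 5 stages, so these are descriptions. How far the scatter of low or partly covered sums such as RPTOR and IRS1 lowers r was not tested.

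The reference genes closest to each member, among 8154 with a mean of at least 5 units, were also taken by Pearson's r over the 15 samples. For AKT1 they were PKIG (r = 0.95), ACADL (0.94) and EIPR1 (0.94), all of which were lowest in PL, with means of 7.88, 13.3 and 4.65 units. For PIK3R1 they were TNFRSF21 (0.93), ACE (0.91) and CABLES1 (0.91), again lowest in PL, at means of 17.9, 7.10 and 5.76 units. For RPTOR they were AGO4 (0.90), FBXW11 (0.78) and BMPR1B (0.78). The closest genes reached r = 0.80 for RPS6KB1 (ABRAXAS2, with MPP7 at 0.79 and MUM1L1 at 0.76), 0.78 for MTOR (PDGFD, with P4HB at 0.76 and CARMIL1 at 0.74) and 0.71 for IRS1 (LOC110259187, with CMTM8 at 0.70 and LOC110260733 at 0.69). These are the top of many candidates and carry no test. They were taken on the deposited scale, where the median gene sum was also lower in PL (log2 fold change -0.65 for PL vs MG).

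Around the 8 members, 9 lists named 81 genes of the pathway reported here, of which 80 were in the table. In W2 vs PL 19 of the 80 passed as higher (30.4% of all gene sums did) and 1 as lower (2.48%), with a median log2 fold change of 0.61 against 0.76 over all gene sums. In PL vs MG 2 passed as higher (2.23%) and 14 as lower (23.0%), with a median of -0.49 against -0.65. Without PL 2 the split was 14 higher and 6 lower in W2 vs PL (median 0.36) and 7 higher and 7 lower in PL vs MG (median -0.27). Shares and medians over all gene sums are not given here for the fit without PL 2, so these counts have no baseline. After median ratio scaling 1 passed as higher (7.67% of all gene sums) and 9 as lower (5.56%) in W2 vs PL, and 7 as higher (5.11%) and 1 as lower (5.86%) in PL vs MG. Of the 20 genes that passed in W2 vs PL as deposited, SESN3 and FOXO3 also passed after scaling.

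By list, in W2 vs PL as deposited, where 30.4% of all gene sums passed as higher, the genes that passed as higher were 1 of 8 PI3K subunits (PIK3R2), 4 of 9 receptors and adaptors, 1 of 4 AKT kinases and PDK1 (AKT1), 2 of 9 genes of the mTOR complexes, 3 of 9 of the S6 kinase and 4E-BP branch, 2 of 7 brakes on PI3K and AKT, 2 of 12 TSC, RHEB and stress inputs, 2 of 12 Rag and amino acid sensors, and 2 of 10 AKT substrates. FOXO3 was the only one lower. In the S6 kinase and 4E-BP branch the median was 0.10, the lowest of the 9 lists, and after scaling 4 of its 9 genes passed as lower in W2 and none as higher, against 5.56% and 7.67% of all gene sums. Without PL 2, as deposited, 2 passed as higher and 2 as lower, again with no share over all gene sums to set beside them. The 4 after scaling were RPS6KB1, RPS6KB2, EIF4EBP1 and EEF2K. PIK3R2, EIF4EBP1, EEF2K and the other genes named below beside those of the F test were singled out after their values were seen.

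**Figure D4:**
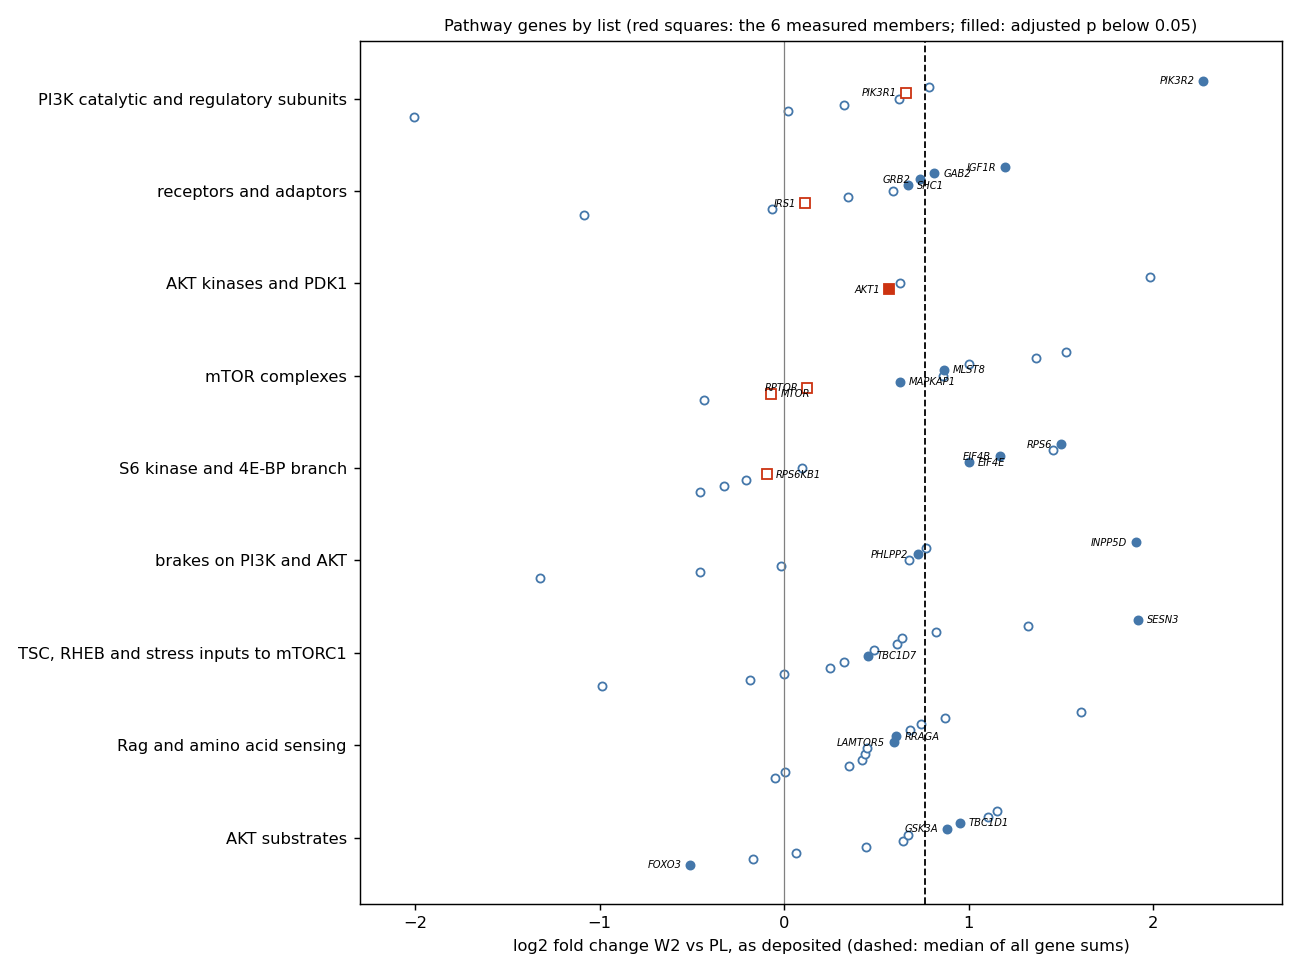
W2 vs PL log2 fold change as deposited (x axis) of the pathway genes by list (y axis), without PIK3CA and AKT2, with red squares for the other 6 members, filled symbols where the adjusted p was below 0.05 and a dashed line at the median of all gene sums (0.76). Of the 20 filled symbols 19 lie above 0, and FOXO3 is the filled symbol below 0.

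Without PL 2, 11 of the 80 genes passed the F test across stages, a count for which no share over all gene sums is given here. With all 15 samples 6 of the 80 passed it, which 18.3% of all gene sums did. The 6 were SESN3, EIF4E, TBC1D1, GSK3A, RRAGA and GRB2, none of them a member. SESN3 encodes a sestrin, a protein that restrains mTORC1. It had 24.8, 27.6 and 29.7 units in MG, 35.4, 23.4 and 35.9 in LG, 29.3, 17.6 and 17.9 in EL, 5.58, 10.4 and 9.53 in PL, and 31.9, 38.1 and 28.0 in W2, all 3 PL samples lying below the other 12. Pair by pair, PL lay below without overlap in many gene sums with a mean of at least 1 unit. The shares were 40.7% against MG, 34.6% against LG, 17.9% against EL and 46.0% against W2. W2 vs PL was 1.91 (SE 0.27, limma adjusted p = 0.00049) and still 1.21 after median ratio scaling (adjusted p = 0.0020). PL vs MG was -1.67 as deposited and -1.03 after scaling (adjusted p = 0.0057).

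The W2 vs PL differences of the other 5 genes did not hold after scaling. EIF4E, the cap-binding translation factor, was 1.00 as deposited (limma adjusted p = 0.0010) and 0.28 after scaling. TBC1D1, an AKT substrate in glucose transport, was 0.95 and 0.24, and GSK3A, a kinase that AKT inhibits, was 0.88 and 0.16. The adaptor GRB2 was 0.73 and 0.01, and RRAGA, a Rag GTPase that brings mTORC1 to the lysosome, was 0.60 and -0.12. The scaled adjusted p-values of these 5 ran from 0.23 to 0.97.

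Other genes stood higher in PL than in MG, and not all of them exceeded every other stage. FOXO3, a transcription factor that AKT keeps out of the nucleus, had 21.6, 22.2 and 23.2 units in MG, 22.8, 23.6 and 26.7 in LG, 18.8, 28.2 and 25.1 in EL, 32.0, 32.8 and 44.0 in PL, and 25.4, 24.9 and 24.9 in W2, so that the 3 PL samples lay above the other 12. Pair by pair, PL lay above without overlap in 3.13% (MG), 3.24% (LG), 2.89% (EL) and 3.15% (W2) of gene sums with a mean of at least 1 unit. For FOXO3 itself, the differences were as follows. PL vs MG was 0.67 (SE 0.17, limma adjusted p = 0.015; 2.23% of all gene sums passed as higher) and 1.33 after scaling (adjusted p = 0.0013). W2 vs PL was -0.51 (adjusted p = 0.040; 2.48% passed as lower) and -1.23 after scaling (adjusted p = 0.0017). As deposited, the W2 vs PL call was lost without LG 3, PL 6, W2 2, W2 3 or W2 6, with differences from -0.52 to -0.36.

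IRS2, the second insulin receptor substrate, had 2.77, 2.09 and 2.36 units in MG, 2.47, 2.66 and 4.28 in LG, 2.50, 4.82 and 2.53 in EL, 3.81, 8.57 and 15.0 in PL, and 4.56, 3.67 and 2.51 in W2. PL 3 and PL 6 exceeded all other samples, whereas PL 2 did not. PL vs MG was 1.55 (SE 0.42, limma adjusted p = 0.019) and 2.14 after scaling (adjusted p = 0.0041). W2 vs PL was -1.08 (adjusted p = 0.065) and -1.74 after scaling (adjusted p = 0.010). The PL vs MG call as deposited was lost without MG 3 (1.47), MG 6 (1.54) or PL 6 (1.11). IRS1 differed from IRS2 here, with PL vs MG at 0.21 and 0.66 after scaling (adjusted p = 0.42), although the difference between these genes was not tested.

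SESN1, another sestrin, had a PL vs MG difference of 1.17 (limma adjusted p = 0.056) and 1.82 after scaling (adjusted p = 0.013), opposite in sign to that of SESN3. TRIB3, a pseudokinase that binds AKT, had 0.75 (adjusted p = 0.061) and 1.32 (adjusted p = 0.0028). EEF2K, the kinase that slows translation elongation and is itself inhibited through S6 kinase, had 0.51 (adjusted p = 0.058) and 1.17 (adjusted p = 0.0043). As deposited, SESN1 in PL 2 (12.4 units) lay below LG 4 (16.3), EL 4 (20.7) and EL 6 (15.9). TRIB3 in PL 2 (2.57) lay below LG 1 (2.68), LG 3 (2.63), W2 3 (3.06) and W2 6 (2.64). EEF2K in PL 3 (35.7) lay below EL 4 (38.4) and EL 6 (36.2), and its PL vs EL difference was 0.25 (limma adjusted p = 0.52). EIF4EBP1, the repressor of cap-dependent translation that mTORC1 inactivates, had 98.4, 270 and 346 units in the PL samples, which spread on both sides of the 165 to 174 units of MG. Its PL vs MG difference was 0.30 as deposited and 0.97 after scaling (adjusted p = 0.016), and as deposited it was -0.06 without PL 6 and 0.84 without PL 2 (adjusted p = 0.00099). W2 vs PL without PL 2 was -0.75 (adjusted p = 0.0014).

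**Figure D5:**
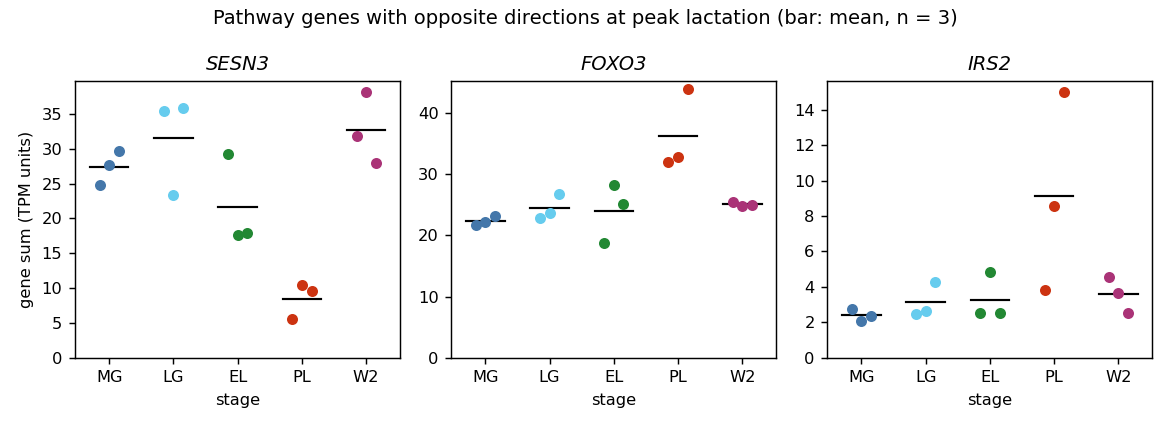
Gene sums in TPM units (y axis, from 0) of SESN3, FOXO3 and IRS2 by stage (x axis), with 1 point per counted sample and a bar at the mean of 3. The PL samples of SESN3 lie below the other 12 samples, and those of FOXO3 above them. Of all gene sums with a mean of at least 1 unit, 40.7% had PL below MG without overlap and 3.13% had PL above MG.

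Summed levels of cell type markers also differed between stages in this whole tissue, on the deposited scale, where the median gene stood 0.76 higher in W2 than in PL. A smaller share of cells of a type cannot be told apart from less RNA per cell. The summed level of 6 fibroblast markers, all in the table, ran from 472 to 1087 units in PL against 1541 to 2336 in MG and 1401 to 2632 in W2. The 3 of 5 adipocyte markers in the table (ADIPOQ and PLIN1 were not) summed to 253 to 388 units in PL and 499 to 616 in W2. That sum is nearly all FABP4 (means of 312 and 538), whereas LEP went the other way (10.7 and 0.13) and CIDEC was at 2.53 and 2.42. The 4 of 6 leukocyte markers (without CD68 and MS4A1) summed to 12.6 to 21.2 in PL and 41.1 to 50.8 in W2. CD163, CSF1R and CD3E had lower means in PL, whereas PTPRC, the leukocyte marker CD45, averaged 4.46 in PL and 2.98 in W2. For endothelium, 3 of 4 markers (without CDH5) summed to 68.9 to 101 units in PL and 112 to 128 in W2. The 6 luminal epithelial markers summed to 837 to 1766 units in PL and 1476 to 1992 in W2, and 5 of 6 myoepithelial markers (without KRT14) to 756 to 1889 and 1393 to 1676. No marker in the table had a mean below 1 unit. The part of these marker levels in the AKT1, SESN3, FOXO3 and RPS6KB1 values was not tested.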

How the data were processed

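Values of 61773 transcripts in 30 mammary samples were used. Per the study's methods and the labels, the authors trimmed reads with Trimmomatic, aligned them to Sscrofa11.1 with HISAT2 and quantified transcripts with StringTie. The authors call the deposited values FPKM, but each column adds up to 997480 to 1002643, so they were treated as TPM, a unit scaled to a fixed total. TPM keep no read depth, so counting error is unknown and precision was taken from the spread between samples. Whether the deposited values include the RUVs correction that the authors name is not given in the sources used here. With a fixed total, a larger share for milk transcripts leaves a smaller share for the other transcripts together. How much of the shift in PL this makes up was not tested.

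Samples were grouped by title. The 3 near-identical samples of each stage (every pair below 5% median difference over transcripts of at least 10 units, their mean equal to that of the other 3) were not counted, and this leaves n = 3. Each sample came from 1 sow, by the study's methods. No batch is named.

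Of the transcripts, 32396 matched a RefSeq accession and 330 a gene name of the Sscrofa11.1 reference table, and 29047 were assembled by the authors and summed by assembled locus. Sums were fitted as log2(value + 0.5) with limma 3.58.1 in R 4.3.3 (5 stages in 1 fit, trended variance, 10 comparisons, F test), with Benjamini-Hochberg adjustment over all 26012 gene sums or all transcripts. The fit was run on simulated data with planted changes larger than those of AKT1 and no shift of all genes. That run therefore cannot show how reliable the smaller differences are, or how the shift in PL affects them. Fold changes understate the change of low genes. Ratios were tested by exact permutation in Python 3.11.15. Alternatives were other pseudocounts (0.1 and 1), a filter on low values, quantile normalization, median ratio scaling over transcripts of at least 10 units in every counted sample, all 6 samples, near-identical samples as 1 more sample, a replicate block, only the 2 stages compared, and each replicate left out.

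The members and lists were chosen with earlier results of these data known. Named were the 8 members, their transcripts with a mean of at least 1 unit (the others by range), the pathway genes that passed the F test, and per member the 3 genes of highest r. An item of the pathway lists is not reported here.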

Additional observations from a re-analysis of the deposited data

How the results depend on the processing

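TPM keep no depth, the transcripts counted for PIK3CA, AKT2, IRS1, RPTOR and RPS6KB1 are only some of those in the reference, and n = 3 per stage left intervals over 1 log2 unit wide for the measured members other than AKT1. With all 6 samples per stage 4 members passed the F test, for which no share over all gene sums is given here. By comparison, with the share of all gene sums that passed in brackets, 1 member passed in LG vs MG (14.2%), 2 in EL vs MG (39.9%) and 2 in PL vs MG (58.1%). Further, 2 passed in PL vs LG (53.0%), 2 in W2 vs LG (24.4%), 1 in PL vs EL (38.9%), 3 in W2 vs EL (50.2%) and 3 in W2 vs PL (63.3%). With the near-identical samples counted once 1 member passed the F test, 1 in PL vs LG and 1 in W2 vs EL, and shares over all gene sums are not given here for that setting. With only the 2 stages compared 0 passed in PL vs MG and 0 in W2 vs PL, again without a share over all gene sums. With quantile normalization 0 passed in W2 vs PL, where 13.6% of all gene sums did. Leaving out each replicate gave 0 to 1 members in the F test, 0 to 1 in PL vs MG, 0 to 1 in PL vs LG, 0 to 2 in W2 vs PL and 0 in the other comparisons. These leave-one-out counts likewise stand without a share over all gene sums.

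With the replicate number as a block 0 passed in PL vs MG (AKT1 -0.41, limma adjusted p = 0.14). No share over all gene sums is given here for that fit. The numbers did not pair the samples: deviations of same-numbered samples correlated at -0.14 to 0.14 over 19 pairs, against -0.13 to 0.23 over 71 other pairs. The block changed no other member count.

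Signs turned under quantile normalization and median ratio scaling, in this order, for AKT1 in W2 vs PL (-0.047 and -0.16) and PL vs MG (0.068 and 0.18), PIK3R1 in W2 vs PL (-0.0095 and -0.064), XM_021081500.1 in W2 vs PL (-0.068 and -0.23) and RRAGA in W2 vs PL (-0.064 and -0.12). By construction both set the typical gene near 0, whereas it stood at 0.76 as deposited. Leaving out each replicate gave -0.34 to 0.073 for RPS6KB1 in W2 vs PL (above 0 without W2 3), -0.75 to 0.15 for EIF4EBP1 in W2 vs PL and -0.062 to 0.84 in PL vs MG, and -1.44 to 0.034 for RPTOR to MTOR in PL against the others (above 0 without PL 2). The cause was not tested. SESN3 kept its W2 vs PL direction and call under every alternative run.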

Other observations

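PIK3R2, which encodes the regulatory subunit p85β, was chosen after its values were seen. It had 10.9, 9.83 and 35.4 units in MG, 8.09, 16.2 and 1.86 in PL, and 30.4, 30.3 and 39.5 in W2. W2 vs PL was 2.27 (limma adjusted p = 0.015) and 1.57 after median ratio scaling (adjusted p = 0.13), and without W2 6 it was 2.15 (adjusted p = 0.051). INPP5D, a lipid phosphatase of blood cells that acts on PIP3, had 11.4, 15.1 and 18.1 units in MG, 3.07, 9.62 and 1.07 in PL, and 16.2, 15.2 and 10.9 in W2. Its W2 vs PL difference was 1.91 (adjusted p = 0.019) and 1.24 after scaling (adjusted p = 0.16). The call as deposited was lost without PL 2, PL 6, W2 2 or W2 3, with differences from 1.26 to 1.85. The summed leukocyte markers were lowest in PL as well, at 12.6 to 21.2 units, by CD163, CSF1R and CD3E, whereas PTPRC (CD45) averaged 4.46 units in PL and 2.98 in W2, and their part in the INPP5D values was not tested.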
